A study of Rattus norvegicus with 28 samples.

Results

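The 8 genes described here encode proteins that dampen signalling by G protein coupled receptors: Rgs2, Rgs4 and Rgs16 (regulators of G protein signalling), Grk3, Grk5 and Grk6 (G protein coupled receptor kinases), and Arrb1 and Arrb2 (the beta-arrestins). They were chosen by symbol from a bulk RNA-seq table that lists 17455 gene symbols, and for a symbol with more than 1 transcript the transcript of highest mean level was kept. The RNA came from INS-1 cells, which derive from a rat insulinoma and serve as a model of the pancreatic beta cell, in 28 libraries of 14 groups with 2 libraries each. The groups were WT and Med14 S983A cells, each untreated (CON) or treated for 1, 8 or 16 h with 10 nM Exendin-4 (Ex-4), a peptide agonist of the GLP-1 receptor, or with 10 uM forskolin (FSK), which activates adenylyl cyclase directly. All cells were placed in medium without serum before treatment. Each genotype had 1 CON group, with no hours given, which served as reference for 1, 8 and 16 h. The agent and the hours in culture can therefore not be told apart in comparisons with CON or between times. Med14 is a subunit of the Mediator complex, and S983A replaces a serine of it, a target of protein kinase A, with alanine. The mutant cells carry the change as a CRISPR knock-in and were grown up from single cells. The study says that its experiments were replicated with 2 independently made mutant lines. The labels do not say which line, or whether both, gave these libraries, so genotype and clone cannot be told apart. The study calls its replicates biological, but whether the libraries of a group came from separate cultures is not stated, and p-values then measure only the spread between these libraries. In bulk RNA a change in every cell and a change in some of the cells cannot be told apart.

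When a receptor such as the GLP-1 receptor is activated it loads a G protein with GTP, and the Gs form of that protein raises cAMP. RGS proteins speed up GTP hydrolysis by the alpha subunits of the Gi and Gq classes and so shorten their signal. GRKs phosphorylate receptors that are in the active state, and beta-arrestins bind the phosphorylated receptors, uncouple them from G proteins and link them to clathrin for internalisation. FSK acts downstream of the receptor, so cAMP can rise without the receptor being occupied. The comparisons below ask how the RNA of these genes moved with each agent over time, and whether it differed between the genotypes.

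Of the 8 genes, 7 were expressed. Rgs4 was above 0 TPM in 2 of the 28 libraries, with 3 fragments in all, where 3 fragments in one library would correspond to between 0.0193 and 0.0435 TPM. It was not tested. At WT CON the most abundant of the other genes were Rgs16 with 122 and 117 TPM and Grk6 with 102 TPM in both libraries, followed by Grk3 with 42.3 and 37.0 TPM, Arrb2 with 37.8 and 37.3 TPM, Grk5 with 12.4 and 10.9 TPM, Rgs2 with 8.74 and 8.08 TPM, and Arrb1 with 4.29 and 3.74 TPM. TPM, a measure of transcript abundance within a library, is scaled by length, so these levels can be compared between genes. The deepest library, the second of Med14 S983A at 8 h of FSK, held 92635979 fragments and the others 42551133 to 57231981. All 11 beta cell markers found in the table were expressed, led by Ins1 at 33700 to 67800 TPM. Of 6 markers of other islet cells, Gcg was expressed and the other 5 stayed below 1 TPM in every library. Gcg was at 165 and 169 TPM in untreated WT cells and at 6.09 and 6.55 TPM in untreated Med14 S983A cells, reached 1230 and 1340 TPM at 8 h of FSK in WT, and its part in the results below was not tested. Of 8 markers of blood, vessel, stromal, duct and acinar cells, 7 stayed below 1 TPM in every library and their sum lay between 0.17 and 3.22 TPM.

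The promoters of Rgs2 and Rgs16 are shown because these were the genes that rose at 1 h, together with a short stretch of Grk3. The sequences are those of RefSeq on the GRCr8 build, which is not the rn6 build of the expression table, and they were found for 6 of the 8 genes. CREB, a transcription factor activated by cAMP signalling, binds the cAMP response element (CRE) TGACGTCA and, less tightly, its shorter core TGACG. Capitals mark matches to the core or its complement CGTCA, searched on both strands from 250 bases before to 50 after the start of each gene. The full CRE was in 1.83% of all 33469 promoters and in none of the 6, and the core, which is part of the full CRE, was in 21.2% of all promoters and in 3 of the 6. The Rgs2 stretch covers the 250 bases before the start, at chr13:58352667-58352916 on the minus strand, with the core beginning at position -216. The Rgs16 stretch covers the 250 bases before the start, at chr13:68437870-68438119 on the plus strand, and holds no match. The Grk3 stretch of 29 bases lies at chr12:49285348-49285376 on the plus strand, with the core beginning at position 33 inside the transcript. Rgs4, which was not expressed, also held 1 match.
Rgs2: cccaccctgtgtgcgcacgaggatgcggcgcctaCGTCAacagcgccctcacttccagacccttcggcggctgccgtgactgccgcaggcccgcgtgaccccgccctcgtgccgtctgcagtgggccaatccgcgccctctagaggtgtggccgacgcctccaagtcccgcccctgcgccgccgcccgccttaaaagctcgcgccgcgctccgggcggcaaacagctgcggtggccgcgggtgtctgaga
Rgs16: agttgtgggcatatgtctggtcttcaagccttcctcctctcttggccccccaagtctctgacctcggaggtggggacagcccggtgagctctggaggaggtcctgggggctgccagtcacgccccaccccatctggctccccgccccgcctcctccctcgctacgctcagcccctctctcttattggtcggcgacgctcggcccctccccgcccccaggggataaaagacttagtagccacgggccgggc
Grk3: cgtgctggccgaCGTCAgctacctgatgg
A match of these letters is a description of the window and was not set against binding data.

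Rgs2, a GTPase-activating protein that acts mainly on Gq, was the most strongly induced gene of the group. In WT it went from 8.74 and 8.08 TPM at CON to 165 and 176 TPM at 1 h of Ex-4, and to 528 and 512 TPM at 1 h of FSK. Med14 S983A cells went from 9.49 and 7.93 TPM to 156 and 180 TPM with Ex-4, and to 748 and 812 TPM with FSK. The treated libraries were all far above the untreated ones in both genotypes. Differences and folds were computed on log2(TPM + 1) and are called where the limma adjusted p was under 0.05 and the fold above 1.5. The rise was 4.19 ± 0.08 (log2, SE, adjusted p = 5.5e-23), or 18.2-fold, with Ex-4 in WT, and 5.79 ± 0.08 (adjusted p = 2.1e-26), or 55.4-fold, with FSK. The Med14 S983A cells showed rises of 17.4-fold with Ex-4 and 80.6-fold with FSK. Rgs2 overlaps Uchl5, on the opposite strand, over 2228 bases, and how strand was used in counting is not given in the sources used here. Uchl5 lay between 22.2 and 46.3 TPM in all libraries and differed by -0.04 (log2) at 1 h of FSK in WT.

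Rgs2 then declined with both agents. At 8 h of Ex-4 it was at 23.4 and 22.3 TPM in WT and at 16.9 and 17.1 TPM in Med14 S983A, and at 16 h at 10.4 and 9.16 TPM in WT and 15.2 and 12.9 TPM in Med14 S983A. At 16 h of Ex-4 the WT value differed from CON by 0.20 ± 0.08 (log2) and was not called, whereas the Med14 S983A value was higher by 0.63 ± 0.08 (adjusted p = 2.8e-07), a call that was lost without the second Med14 S983A CON library (0.52) or the first 16 h library (0.52) and when values were scaled on the ERCC spike-in RNAs (0.53). With FSK, Rgs2 was still at 97.6 and 101 TPM in WT after 8 h and at 59.8 and 55.9 TPM after 16 h, the latter 6.26-fold above CON. Med14 S983A cells were at 88.7 and 79.0 TPM after 8 h and at 37.8 and 35.2 TPM after 16 h, 3.87-fold above CON. From 1 h to 16 h it changed by -3.99 (log2) with Ex-4 and -3.15 with FSK in WT, and by -3.49 and -4.38 in Med14 S983A. FSK gave higher levels than Ex-4 at every time in both genotypes, by 3.04-fold at 1 h, 4.21-fold at 8 h and 5.46-fold at 16 h in WT, and by 4.63-fold, 4.7-fold and 2.5-fold in Med14 S983A.

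Rgs16, which acts on Gi and Gq, also rose at 1 h, from a level that differed between the genotypes. In WT it went from 122 and 117 TPM at CON to 254 and 241 TPM with Ex-4 and to 260 and 264 TPM with FSK, rises of 2.07-fold (adjusted p = 8.3e-14) and 2.19-fold (adjusted p = 7.7e-15). The agents differed by -0.08 (Ex-4 minus FSK, log2, 95% interval -0.20 to 0.03) in WT at that time. In Med14 S983A it went from 35.3 and 34.8 TPM to 116 and 114 TPM with Ex-4 and to 157 and 172 TPM with FSK, rises of 3.23-fold and 4.58-fold. All treated libraries of Med14 S983A at 1 h of Ex-4 were below the untreated WT libraries.

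With longer FSK treatment Rgs16 went below its own CON level. In WT it was at 77.1 and 73.5 TPM after 8 h and at 36.7 and 35.1 TPM after 16 h, changes of -0.66 ± 0.06 and -1.71 ± 0.06 (log2, adjusted p = 4.7e-11 and 2.9e-19). The call at 8 h was lost when values were centred on the median of all genes and with both count tests (-0.27 at the smallest), and the median of all genes was -0.34 (log2) in this comparison. The Med14 S983A libraries were at 30.7 and 27.4 TPM after 8 h, which was not called (-0.26 ± 0.06), and at 15.4 and 13.6 TPM after 16 h (-1.22 ± 0.06, adjusted p = 2.6e-16). With Ex-4 it was back at 125 and 128 TPM after 8 h and at 86.5 and 92.4 TPM after 16 h in WT, and at 48.3 and 50 TPM and then 38.7 and 40.1 TPM in Med14 S983A, with differences from CON of 0.09 and -0.41 (log2) in WT and of 0.48 and 0.16 in Med14 S983A, under the fold of 1.5. From 1 h to 16 h of FSK it changed by -2.84 (log2) in WT and by -3.42 in Med14 S983A.

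**Figure D1:**
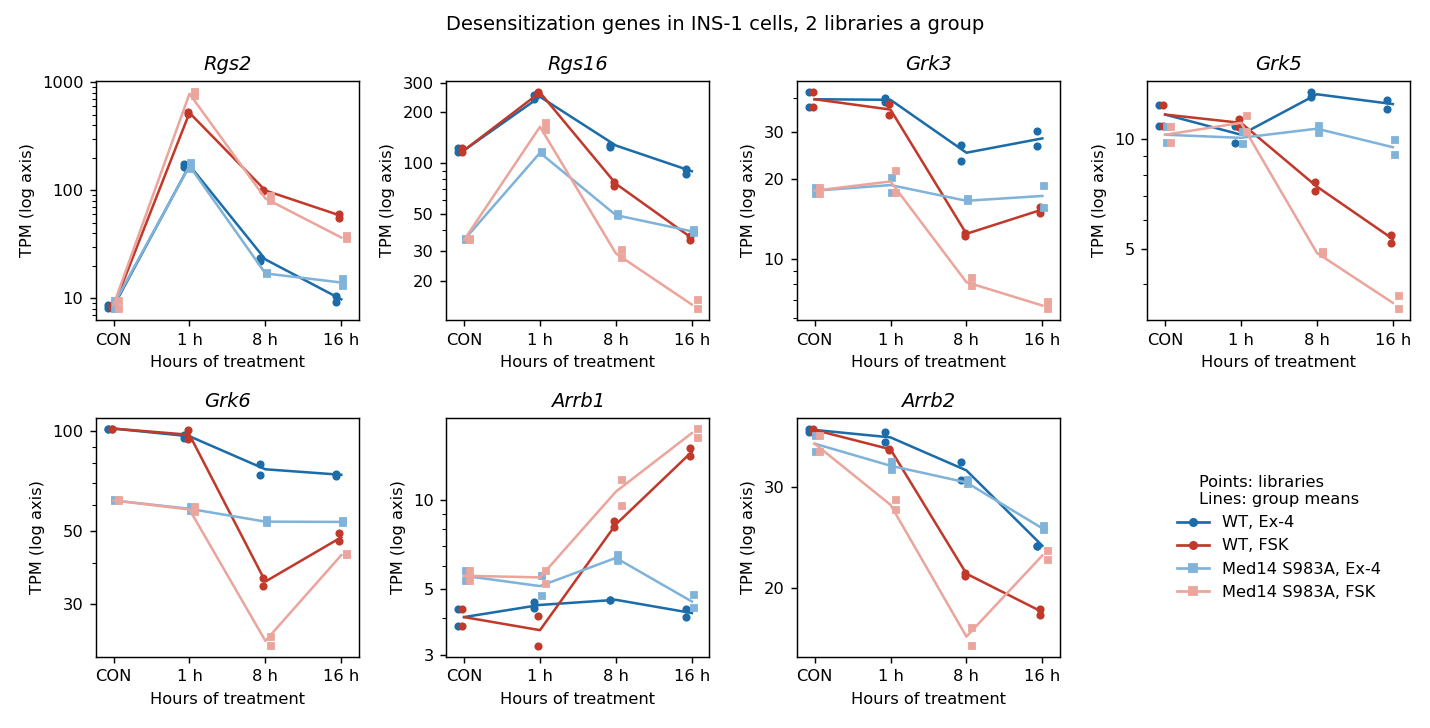
TPM of the 7 expressed genes on log axes against hours of treatment, for both genotypes and both agents; points are the 2 libraries of a group and lines join group means, and the CON libraries are drawn for both agents. Rgs2 and Rgs16 peak at 1 h, Grk3, Grk5, Grk6 and Arrb2 are lower and Arrb1 higher at 8 and 16 h of FSK, for example 14.1 and 15.1 TPM for Arrb1 in WT at 16 h against 4.29 and 3.74 TPM at CON.

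Grk3, Grk5 and Grk6 were near their CON levels at 1 h and lower at 8 and 16 h of FSK. Grk3, a kinase recruited to the membrane by free beta-gamma subunits, was at 42.3 and 37.0 TPM in WT CON, at 12.5 and 12.2 TPM after 8 h of FSK and at 15.7 and 14.8 TPM after 16 h. These are changes of -1.60 ± 0.09 and -1.32 ± 0.09 (log2, adjusted p = 2.4e-14 and 1.7e-12). In Med14 S983A it went from 18.5 and 17.5 TPM to 8.45 and 7.87 TPM and then to 6.88 and 6.46 TPM, changes of -1.05 and -1.30. With Ex-4 in WT it was at 26.8 and 23.2 TPM after 8 h (-0.64 ± 0.09, adjusted p = 2.1e-06) and at 26.4 and 30.1 TPM after 16 h, which was not called (-0.47). The call at 8 h of Ex-4 was lost under each alternative scaling and count test (-0.50 at the smallest) and without the second 8 h library (-0.54) or the first CON library (-0.55). In Med14 S983A with Ex-4 it lay between 15.5 and 20.1 TPM at all times, with differences from CON of -0.11 to 0.07 (log2).

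Grk5 and Grk6, kinases that are attached to the membrane without beta-gamma subunits, also fell with FSK. Grk6, the most abundant of the 3, went from 102 TPM in both WT CON libraries to 36.1 and 34.0 TPM after 8 h (-1.51 ± 0.04, log2, adjusted p = 3.0e-20) and to 46.5 and 49.2 TPM after 16 h (-1.08 ± 0.04, adjusted p = 4.1e-17). Med14 S983A libraries went from 61.5 and 62.0 TPM to 23.9 and 22.4 TPM (-1.38) and then to 42.4 and 42.1 TPM, where the change of -0.54 ± 0.04 (adjusted p = 4.9e-11) stayed under the fold of 1.5. Its Ex-4 values were lower than CON by up to -0.46 (log2) in WT and -0.21 in Med14 S983A and were not called. Grk6 had 3 transcripts in the table, with means of 57.6 to 62.9 TPM, which share most of their reads.

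Grk5 was at 12.4 and 10.9 TPM in WT CON and at 10.8 and 9.76 TPM in untreated Med14 S983A cells. After 16 h of FSK it was at 5.21 and 5.45 TPM in WT (2-fold, adjusted p = 5.6e-12) and at 3.42 and 3.71 TPM in Med14 S983A (2.47-fold, adjusted p = 2.6e-14). At 8 h of FSK the WT value of -0.58 was at the fold limit and its call was lost under 4 alternative scalings and count tests (-0.19 at the smallest) and without the first CON library (-0.50) or the second 8 h library (-0.55), while the Med14 S983A value was -0.94. With Ex-4, Grk5 lay between -0.16 and 0.18 (log2) of CON in both genotypes at all times and was never called, and at 16 h it was higher with Ex-4 than with FSK by 2.13-fold in WT and 2.30-fold in Med14 S983A.

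The summed level of Grk3, Grk5 and Grk6 in WT was 153 ± 4.64 TPM at CON, 54.9 ± 1.99 at 8 h of FSK and 68.4 ± 1.4 at 16 h (SD, n = 2). The corresponding sums in Med14 S983A were 90 ± 1.1, 36.2 ± 1.42 and 52.5 ± 0.294 TPM. Grk6 made up 66.6% ± 2.09 of this sum in WT CON and 68.6% ± 1.25 in the untreated Med14 S983A cells, and 80.5% ± 0.0631 in Med14 S983A after 16 h of FSK against 69.9% ± 1.38 in WT. These shares are descriptions and were not tested. Grk2 and Grk4, described below, are not part of the sums, so the sums do not give the total GRK RNA.

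The beta-arrestin genes moved in opposite directions with FSK. Arrb1 went from 4.29 and 3.74 TPM in WT CON to 8.10 and 8.48 TPM after 8 h and to 14.1 and 15.1 TPM after 16 h, rises of 1.85-fold and 3.11-fold (0.89 ± 0.09 and 1.64 ± 0.09, log2, adjusted p = 2.5e-09 and 2.3e-14). In Med14 S983A it went from 5.78 and 5.33 TPM to 11.7 and 9.59 TPM and to 17.5 and 16.2 TPM, rises of 1.77-fold and 2.73-fold. With Ex-4 it lay between 4.03 and 4.61 TPM in WT and between 4.32 and 6.54 TPM in Med14 S983A, with differences from CON of -0.24 to 0.17 (log2), none of them past the fold of 1.5.

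Arrb2 went from 37.8 and 37.3 TPM in WT CON to 21 and 21.3 TPM after 8 h of FSK and to 18.4 and 18 TPM after 16 h (-0.80 ± 0.05 and -1.01 ± 0.05, log2, adjusted p = 5.2e-14 and 6.5e-16). That at 8 h was no longer called with median-centring and with both count tests (-0.41 at the smallest). In Med14 S983A it went from 34.5 and 36.7 TPM to 17.1 and 15.9 TPM (-1.07) and then to 22.4 and 23.2 TPM (-0.62), and the 16 h call was lost under every alternative scaling and count test (-0.39 at the smallest) and without the second Med14 S983A CON library (-0.58). Arrb2 was also lower at 16 h of Ex-4 in WT, at 23.7 TPM in both libraries (-0.64 ± 0.05, adjusted p = 2.4e-11). This call was lost under every alternative scaling and count test (-0.32 at the smallest) but held without each library. In Med14 S983A Arrb2 was at 25.2 and 25.6 TPM at that time, which was not called (-0.47 ± 0.05).

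Arrb1 made up 9.66% ± 0.78 of the summed Arrb1 and Arrb2 TPM in WT CON and 44.5% ± 1.51 after 16 h of FSK (SD, n = 2). The shares in Med14 S983A were 13.5% ± 1.18 and 42.5% ± 1.94, and at 8 h of FSK 39.2% ± 2.24 against 28.1% ± 0.506 in WT. With Ex-4 at 16 h the share was 14.9% ± 0.544 in WT, beside 15.1% ± 1.02 in Med14 S983A libraries. The sum of the pair changed less than its make-up, from 41.6 ± 0.692 TPM in WT CON to 32.8 ± 0.4 TPM after 16 h of FSK. RefSeq lists a pseudogene for each of these genes, and reads shared with it could not be separated. A ratio of this kind does not depend on how the libraries were scaled.

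**Figure D2:**
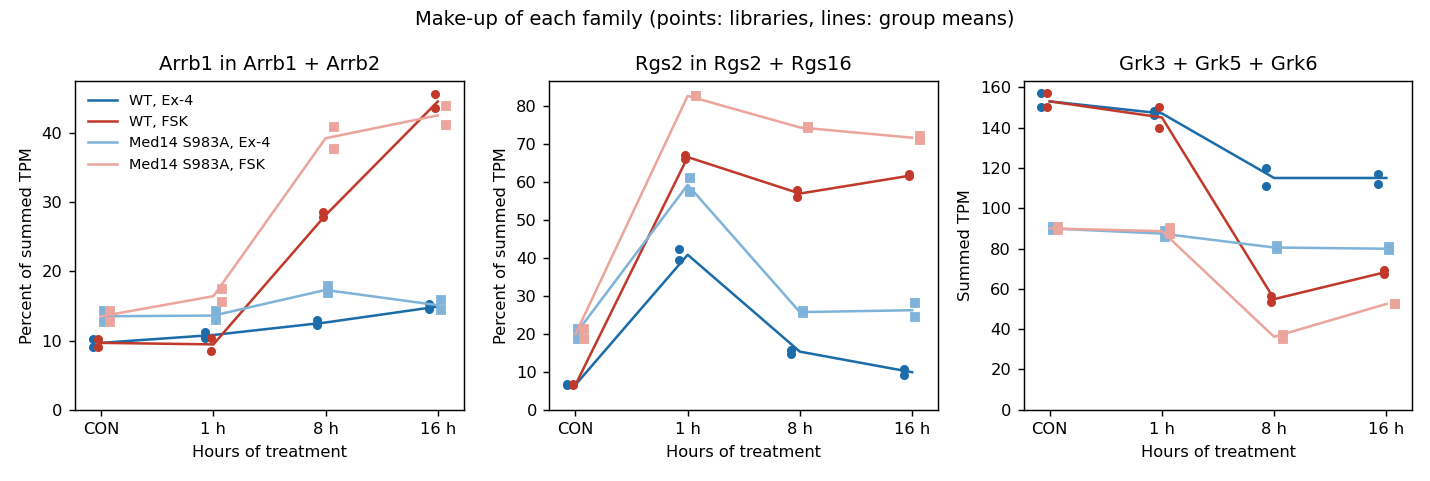
Share of Arrb1 in the summed Arrb1 and Arrb2 TPM, share of Rgs2 in the summed Rgs2 and Rgs16 TPM, and summed TPM of Grk3, Grk5 and Grk6 against hours of treatment; points are libraries and lines group means. The Arrb1 share is above 40% in all 4 libraries of 16 h FSK, from 41.1% to 45.6%, and at most 15.9% at 16 h of Ex-4.

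Counted over the comparisons with CON, the 7 expressed genes gave 39 calls of 84, of which 19 were higher and 20 lower. The share of all 10275 tested genes that was called is given beside each count. At 1 h, 2 of 7 were called with Ex-4 in WT (2.87% of all genes) and in Med14 S983A (3.04%), and 2 of 7 with FSK in WT (7.47%) and in Med14 S983A (10.4%), and in each case these were Rgs2 and Rgs16. At 8 h of Ex-4, 2 of 7 were called in WT (9.60% of all genes), Rgs2 and Grk3, and 1 of 7, Rgs2, in Med14 S983A (6.30%). After 16 h of Ex-4, 1 of 7 was called in WT (11.8% of all genes), Arrb2, and 1 of 7, Rgs2, in Med14 S983A (11.9%). At 8 h of FSK all 7 were called in WT, where 43.6% of all genes were, and 6 of 7 in Med14 S983A (46.1%), without Rgs16. After 16 h of FSK all 7 were called in WT (34.5% of all genes) and 6 of 7 in Med14 S983A (33.3%), without Grk6. The median change of the 7 genes at 16 h of FSK was -1.01 (log2) in WT and -0.62 in Med14 S983A, beside medians of -0.20 and -0.10 for all genes.

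Ex-4 and FSK were also compared directly at each time, at the concentrations given above. At 1 h, 1 of 7, Rgs2, was called in WT (1.79% of all genes) and in Med14 S983A (3.03%). At 8 h, 6 of 7 were called in WT (28.1% of all genes) and 7 of 7 in Med14 S983A (36.5%), with Rgs16 and the GRK genes higher and Rgs2 and Arrb1 lower with Ex-4. At 16 h, 6 of 7 were called in WT (18.7% of all genes) and 5 of 7 in Med14 S983A (16.3%). Arrb1 levels at 16 h were 3.02-fold lower with Ex-4 in WT and 3.22-fold lower in Med14 S983A. Several of these calls were lost with median-centring, among them Rgs16 at 8 h in both genotypes (0.48 and 0.43, log2), and Grk6 at 16 h in WT was also lost without the first 16 h FSK library (0.58) and Arrb1 at 8 h in Med14 S983A without the first 8 h FSK library (-0.52). Between 1 h and 16 h of the same agent, 3 of 7 were called with Ex-4 in WT (11.3% of all genes) and 2 of 7 in Med14 S983A (11.6%), all of them lower at 16 h, and the Arrb2 call in WT was lost under every alternative scaling and count test (-0.29 at the smallest, with ERCC scaling) and without the first 1 h library (-0.58). With FSK, 7 of 7 were called in WT (32.3% of all genes) and 5 of 7 in Med14 S983A (35.2%), where Arrb1 rose and the others fell.

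At CON, 3 of the 7 genes were lower in Med14 S983A than in WT, where 19.4% of all genes were called. Rgs16 was lower by 3.34-fold (-1.74 ± 0.06, log2, adjusted p = 3.4e-19), with 35.3 and 34.8 TPM against 122 and 117 TPM. Grk3 was lower by 2.14-fold (-1.10 ± 0.09, adjusted p = 1.1e-10), with 18.5 and 17.5 TPM against 42.3 and 37.0 TPM. Grk6 was lower by 1.64-fold (-0.71 ± 0.04, adjusted p = 3.4e-13), with 61.5 and 62.0 TPM against 102 TPM in both. Its call was lost with ERCC scaling (-0.51), where the median of all genes was 0.13, and with DESeq2 on ERCC size factors (-0.52). Arrb1 was at 5.78 and 5.33 TPM against 4.29 and 3.74 TPM (0.39 ± 0.09, adjusted p = 7.5e-04) and stayed under the fold of 1.5, though it was called with DESeq2 on ERCC size factors (0.67). The differences of Rgs2 (0.04, 95% interval -0.13 to 0.21), Grk5 (-0.16, -0.32 to -0.01) and Arrb2 (-0.08, -0.17 to 0.02) were not called. Across the 7 conditions, both Med14 S983A libraries were below both WT libraries in all 7 for Rgs16, Grk3 and Grk6, and above them in all 7 for Arrb1. This count was not made over all tested genes, so it cannot be read as particular to these genes. The ratio of the means, Med14 S983A to WT, lay between 0.294 and 0.626 for Rgs16, 0.437 and 0.661 for Grk3, 0.593 and 0.883 for Grk6, and 1.09 and 1.51 for Arrb1.

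Grk3 and Grk6 lie among genes that were also lower in Med14 S983A. Grk3 is at chr12:49626871-49746269 (rn6, plus strand), and of its 47 nearest tested neighbours, up to 25 on each side, 45 were lower in Med14 S983A CON and 33 were called lower and none higher, with a median of -0.70 (log2). For 6 of these neighbours the decrease was larger than for Grk3 itself. Grk6 is at chr17:9705917-9721542 (rn6, minus strand), and of its 50 neighbours 48 were lower, 30 were called lower and none higher, with a median of -0.63, close to the -0.71 of Grk6. Over all 10275 tested genes the median difference was -0.07, with 1145 called lower and 852 called higher. Rgs16, at chr13:71180078-71183522 (rn6, plus strand), stood apart from its 50 neighbours, whose median was -0.16 with 4 called lower and 2 called higher, and none of them was as low as Rgs16. The neighbours of the other 4 genes had medians of -0.19 to -0.07. What the differences along chromosomes 12 and 17 stem from was not tested, and copy number was not measured.

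**Figure D3:**
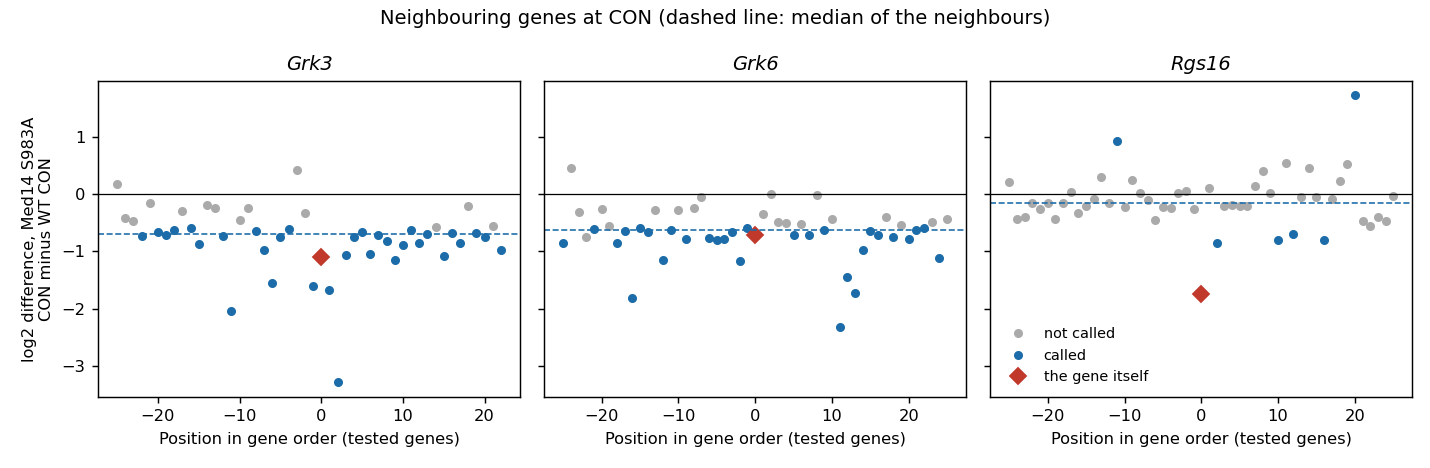
Log2 difference in log2(TPM + 1), Med14 S983A CON minus WT CON, of the tested genes up to 25 places on each side of Grk3, Grk6 and Rgs16 in rn6 gene order; diamonds mark the gene itself, blue points are called, grey points are not, and the dashed line is the median of the neighbours. The medians are -0.70, -0.63 and -0.16.

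Whether the response to treatment differed between the genotypes was tested as the response in Med14 S983A minus that in WT. At 1 h of Ex-4, 1 of 7 was called (0.672% of all genes), Rgs16, by 0.65 ± 0.08 (log2, adjusted p = 7.0e-06). At 1 h of FSK, 1 of 7 was called (1.64% of all genes), again Rgs16, by 1.07 ± 0.08 (adjusted p = 4.3e-10). On the TPM scale the rise of Rgs16 was not larger in Med14 S983A, with 80.4 TPM against 128 TPM in WT for Ex-4 and 129 TPM against 143 TPM for FSK, so the direction of this difference depends on the scale. For Rgs2, whose CON levels were alike, the difference at 1 h of FSK was 0.54 ± 0.11 (adjusted p = 0.00287), under the fold of 1.5, with rises of 771 TPM in Med14 S983A and 512 TPM in WT.

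At 8 h of Ex-4 none of the 7 was called by limma (2.77% of all genes), and 4 had a p under 0.05 before and after adjustment, Grk3 with 0.53 ± 0.13, Grk6 with 0.20 ± 0.06, Rgs16 with 0.39 ± 0.08 and Rgs2 with -0.45 ± 0.11. None was called at 16 h of Ex-4 (7.24% of all genes), where 6 had an unadjusted p under 0.05 and 5 an adjusted p under 0.05, and Rgs16 came nearest with 0.58 ± 0.08 (adjusted p = 2.3e-06). None was called at 8 h of FSK (13.9% of all genes), with the same counts of 6 and 5 and Grk3 at 0.55 ± 0.13. On recovered counts neither edgeR nor DESeq2 with its own size factors made a call in these 3 comparisons, while at 16 h of Ex-4 Arrb1 and Grk5 were called with ERCC scaling (-0.64 and -0.60) and with DESeq2 on ERCC size factors (-0.76 and -0.62). At 16 h of FSK 1 of 7 was called (17% of all genes), Rgs2, by -0.69 ± 0.11 (adjusted p = 1.4e-05), which was lost without the first Med14 S983A CON library (-0.58). Grk6 at that time differed by 0.54 ± 0.06 (adjusted p = 9.5e-08) and Arrb2 by 0.39 ± 0.07 (adjusted p = 3.1e-05), both under the fold of 1.5. With limma on the deposited TPM the differences of Arrb1 lay between -0.28 and 0.10 in the 6 comparisons, where the 16 h Ex-4 value moved to the ERCC-based values given above.

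**Figure D4:**
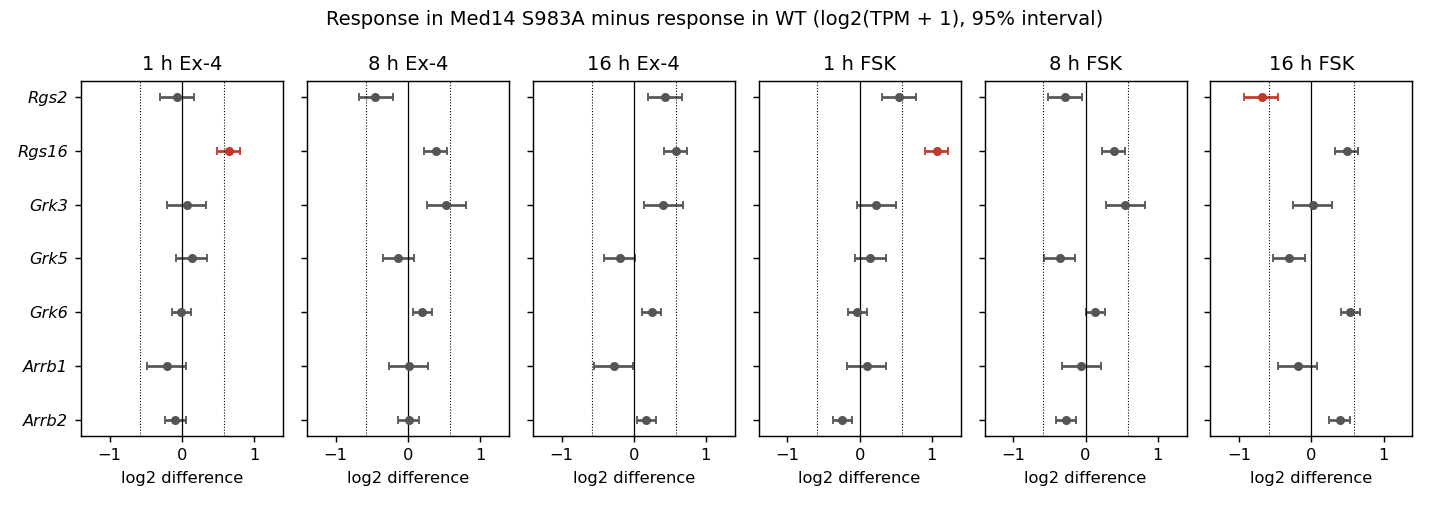
Response in Med14 S983A minus response in WT on log2(TPM + 1) for the 7 genes, 1 panel for each agent and time; bars are 95% intervals, dotted lines mark a fold of 1.5 and red points are called. Rgs16 is called at 1 h of Ex-4 (0.65) and of FSK (1.07), and Rgs2 at 16 h of FSK (-0.69).

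The order of the 14 group means differed between the genes, and the overlap counts given here were not made for the other tested genes. Rgs2 spanned 92.7-fold, from WT CON to Med14 S983A at 1 h of FSK, and 3 of the 13 pairs of neighbours in its order had overlapping libraries. Rgs16 spanned 18.1-fold, from Med14 S983A at 16 h of FSK to WT at 1 h of FSK, with 1 overlapping pair. Grk3 (5.94-fold), Grk5 (3.74-fold) and Grk6 (4.40-fold) were lowest in Med14 S983A after 8 or 16 h of FSK, with 6, 8 and 4 overlapping pairs. Arrb1 spanned 4.65-fold, from WT at 1 h of FSK to Med14 S983A at 16 h of FSK, and Arrb2 2.28-fold, from Med14 S983A at 8 h of FSK to WT CON, with 6 and 3 overlapping pairs.

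The genes most like each of the 7 over the 14 group means were found by Pearson r among 7677 genes of at least 10 TPM, as a description that was not tested. For Rgs2 they were Fos (r = 0.980), an immediate early transcription factor, Fosl2 (0.978), of the same family, and Znrd1 (0.977). For Rgs16 they were Ccdc86 (0.957), Barhl1 (0.955) and Gpr6 (0.953), and for Grk3 Fcho2 (0.983), C1qtnf6 (0.979) and Fam20c (0.979). For Grk5 they were Dlc1 (0.960), Syt13 (0.960) and Galnt2 (0.959), and for Grk6 Wasf1 (0.993), Slc12a9 (0.989) and Commd10 (0.989). For Arrb1 they were Rhot2 (0.937), Ext1 (0.931) and Atg4d (0.929), and for Arrb2 Dpy30 (0.973), RGD1308134 (0.972) and Maz (0.972). Among the 7 themselves r was 0.92 between Grk3 and Grk6 and -0.94 between Grk5 and Arrb1.

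The other genes of the pathway give the setting. Of 9 other RGS genes that were tested, none was called by limma at 1 h of Ex-4 in WT (2.87% of all genes) or Med14 S983A (3.04%). Of these, 3 in WT and 5 in Med14 S983A had an unadjusted p under 0.05. At 1 h of FSK 1 of the 9 was lower in both genotypes (11.1%, against 7.47% of all genes in WT and 10.4% in Med14 S983A). This was Rgs14 (-0.68 in WT and -0.62 in Med14 S983A, log2). At 16 h of FSK in WT 2 of the 9 were lower and none higher (22.2%, against 34.5% of all genes), and in Med14 S983A 3 were lower and 2 higher (55.6%, against 33.3%). At 16 h of Ex-4 the counts were 1 lower in WT (11.1%, against 11.8%), and 3 lower and 2 higher in Med14 S983A (55.6%, against 11.9%). At CON 3 of the 9 were lower in Med14 S983A (33.3%, against 19.4% of all genes), among them Rgs17 with 27.3 ± 0.87 TPM in WT and 10.8 ± 0.041 TPM in Med14 S983A (SD, n = 2, -1.27, adjusted p = 5.0e-16) and Rgs10 with 40.6 ± 1.65 and 23.1 ± 0.149 TPM (-0.79, adjusted p = 1.9e-10). Of the other GRK and arrestin genes, Grk2 and Grk4 were tested and neither was called by limma at 16 h of FSK in WT or between the genotypes at CON, with 2 and 0 at an unadjusted p under 0.05. Over all comparisons with CON 1 call was made for these genes, Grk4 at 8 h of FSK in Med14 S983A (-0.62, adjusted p = 4.0e-06, mean 2.63 TPM), beside -0.57 in WT. Grk2, with a mean of 139 TPM the most abundant GRK in these cells, differed by -0.33 (log2) at 16 h of FSK in WT and by 0.02 between the genotypes. At 8 h of FSK the median of Grk2 and Grk4 was -0.57 in WT and -0.51 in Med14 S983A, beside -0.34 and -0.28 for all genes. The Grk1, visual arrestin (Sag) and cone arrestin (Arr3) genes, known from the retina, averaged under 0.1 TPM.

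Of 25 tested genes for G protein subunits and their chaperones, 2 were higher and 6 lower at 16 h of FSK in WT (32%, against 34.5% of all genes), among them Gpsm1, which binds Gi alpha subunits in their GDP form, at 76.5 ± 3.39 TPM in CON and 35.2 ± 1.33 TPM (-1.10, log2, adjusted p = 2.3e-15). Of 20 genes of clathrin endocytosis, 2 were higher and 2 lower (20%), with Ap2a2, a subunit of the clathrin adaptor AP-2, at 110 ± 3.75 and 226 ± 2 TPM (1.03, adjusted p = 5.8e-17) and Amph (amphiphysin) at 33.8 ± 2.49 and 13.3 ± 0.388 TPM (-1.28, adjusted p = 7.5e-16). Of 20 receptor sorting genes, 3 were lower and none higher (15%). In WT at 16 h of Ex-4, 1 of the 25 genes for G protein subunits and their chaperones was called (4%, against 11.8% of all genes). None of the 20 clathrin endocytosis genes or the 20 receptor sorting genes was called. The called gene was Gng2, a gamma subunit, which was named after its value was seen (1.09, adjusted p = 5.6e-12, mean 3.84 TPM). At CON, Slc9a3r1, a scaffold that binds receptor tails and favours their recycling, was at 248 ± 5.57 TPM in WT and 82.8 ± 1.72 TPM in Med14 S983A (-1.57, adjusted p = 3.9e-22). The median differences of these 3 lists at 16 h of FSK in WT were -0.28, -0.03 and -0.08 (log2), beside -0.20 for all genes.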

How the data were processed

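RNA-seq libraries of INS-1 cells with ERCC spike-in RNAs were made with a directional kit. Per the labels and the study's methods, the authors aligned reads to rn6 with STAR 2.5.3a, quantified transcripts with HOMER 4.11.1 and counted ERCC RNAs with QoRTs. They tested genes with DESeq2 1.24.0, with size factors taken from the ERCC RNAs, and deposited transcript TPM and raw ERCC counts. DESeq2 on ERCC size factors, run here as an alternative, uses the same kind of scaling. The strand setting of the counting is not given in the sources used here. Library numbers in the column names differ from those in the labels, so columns were matched by genotype, agent, hours and replicate. The deposited TPM values were used without further scaling. The table has 19223 lines, 92 of them ERCC. For each symbol the transcript with the highest mean was kept (1676 dropped), and 10275 genes averaging 1 TPM or more were tested.

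log2(TPM + 1) was fitted with limma 3.58.1 (R 4.3.3, 1 mean for each of 14 groups, 28 libraries, trended empirical Bayes, two-sided), with Benjamini-Hochberg adjustment over all tested genes in each of 29 comparisons. A pseudocount of 1 understates the change of low genes. ERCC counts and TPM gave the fragments behind each value: 100% of 124685 low values came out as whole reads, within 0.05 reads plus the rounding of TPM, where chance gives 22.6%. Counts recovered in this way were tested with edgeR 4.0.16 and DESeq2 1.42.0 as alternatives, beside another pseudocount, filters, centring on the median, ERCC scaling, a replicate block and leaving out each library. ERCC RNAs took 0.671% to 1.03% of fragments. Replicates correlated at 0.998 to 0.999 and none agreed within sampling noise. The fragments behind the 7 genes were 103 to 14868 per library. Scripts were tested on simulated data. The members and the gene lists were chosen with earlier results of these data known. The genes named from the lists are the 3 largest by log2 difference among called genes averaging 10 TPM or more, at 16 h of Ex-4 and of FSK in WT and at CON between genotypes, which gave 6 genes. Rgs14, Grk2, Grk4 and Gng2 fall outside this rule and were named after their values were seen.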

Additional observations from a re-analysis of the deposited data

Results flagged for a closer look

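Of 42 differences between the genotypes' responses tested for the 7 expressed genes, 3 passed the test of the difference itself. Over all tested genes, 0.672% to 17% were called in the 6 comparisons, so this count cannot be read as particular to these genes. Groups of 2 libraries are too small to look for outlying libraries. Rgs16 rose more in Med14 S983A than in WT on the log2 scale at 1 h of Ex-4, by 0.65, and at 1 h of FSK, by 1.07, from a CON level that was 3.34-fold lower. On the TPM scale its rise was 80.4 against 128 TPM and 129 against 143 TPM, Med14 S983A against WT. Rgs2 at 16 h of FSK differed by -0.69, with 37.8 and 35.2 TPM in Med14 S983A and 59.8 and 55.9 TPM in WT, from CON levels of 9.49 and 7.93 TPM and 8.74 and 8.08 TPM.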

How the results depend on the processing

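Of the 88 calls made for the 7 genes, 73 held under all 5 alternative scalings and count tests and 72 also under the other alternatives and without each library, and no called value changed sign. The calls against CON numbered 39, and 33 with median-centring, edgeR or DESeq2, 34 with ERCC scaling, 35 with DESeq2 on ERCC size factors and 56 with no fold minimum. Leaving out 1 library gave 37 to 39 calls against CON, 3 at CON between genotypes, 25 to 27 between Ex-4 and FSK (26 in the fit of all libraries) and 16 to 17 between 16 h and 1 h (17). The 3 called differences of response became 5 with ERCC scaling and 5 with DESeq2 on ERCC size factors, both by adding Arrb1 (-0.64 and -0.76) and Grk5 (-0.60 and -0.62) at 16 h of Ex-4, where ERCC scaling put the median of all genes at -0.33, and 23 with no fold minimum. Without 1 library they numbered 3 to 7: without the second WT CON library 7, with Grk3 (0.63 at 8 h of Ex-4, 0.65 at 8 h of FSK), Rgs16 (0.60 at 16 h of Ex-4) and Rgs2 (0.59 at 1 h of FSK) added, and without the first Med14 S983A CON library 5. A fit with the replicate number as a block gave the same counts (39, 3, 3, 26 and 17). Shares over all tested genes were not counted under the alternatives, so these counts cannot be read as particular to the 7 genes. The replicate numbers showed no pairing common to all groups: over 91 pairs of groups their deviations correlated at -0.28 to 0.28 (median 0.00), with 17 pairs over 0.1. A batch shared by only some of the groups was not tested. Values that were not called changed sign 17 times with median-centring, 23 with ERCC scaling, 14 with edgeR and 17 with DESeq2. DESeq2 on ERCC size factors added Arrb1 at CON (0.67) and lost Grk6 at CON (-0.52). The cause of these changes was not tested. With 2 libraries a group, differences under a fold of 1.5 were left uncalled by rule.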
